A study of Mus musculus with 20 samples.

Results

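The 9 genes described here are transcripts by which microglia, the resident macrophages of brain tissue, are recognised in whole-brain RNA: Cx3cr1, P2ry12, Tmem119, Csf1r, C1qa, C1qb, C1qc, Trem2 and Aif1. They were chosen by name, as the rows carrying these 9 symbols among the 23845 genes of the count and TPM tables, with no threshold on a measured value; the symbols were picked with earlier results of these data known. All 9 were above 0 in each of the 20 libraries and passed the filter on low counts, which left 16063 genes to test. Whether fewer microglia or less RNA per microglial cell lies behind a lower value cannot be told apart in bulk tissue.

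RNA came from mouse brain, with the strain given as C57/Bl6J, in a series on JNK isoform mice and their controls kept on a normal diet. JNK1 and JNK2, encoded by Mapk8 and Mapk9, are stress-activated protein kinases whose transcripts carry either of a pair of alternative exons, the 7a and 7b forms. Of the 7 genotype labels, J17b covers 2 libraries, and J27a, J27b, J17a, J1 lf/lf, J2 lf/lf and Wild type cover 3 each. The labels do not spell out these codes, do not say whether the form in a code was removed or retained, and name no age, sex, promoter or Cre driver, so the groups are called here by their labels. No label ties a library to an animal of its own, and the p-values therefore measure only the spread between these samples, which may be technical.

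Microglia enter the brain early in development and renew themselves there. Their survival depends on signalling through CSF1R, and in the healthy brain they survey the tissue with motile processes that are steered by nucleotides through P2RY12 and kept in contact with neurons through CX3CR1. They are also the main local source of C1q, the first component of the classical complement pathway, which tags synapses and debris for uptake. P2ry12 and Tmem119 are known for falling when microglia become activated, whereas Trem2 and Aif1 are known for being held or raised in that state.

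The libraries held 21395041 to 33828755 estimated counts. Values are given as CPM, a count relative to the TMM-scaled size of its library, except where genes are set against each other, which is done in TPM, a unit corrected for transcript length. The targeted genes were examined first: the 2 J17b libraries had the lowest Mapk8 values of all 20 (74.6 and 79.2 CPM against 102 to 140 CPM). The 3 J2 lf/lf libraries had the lowest Mapk9 values (177, 171 and 58.1 CPM against 274 to 360 CPM), with replicate 3 far below the others of its group. Mapk9 in J27b (274 to 278 CPM) also lay below Wild type (293 to 360 CPM), whereas Mapk8 in J1 lf/lf and J17a and Mapk9 in J27a overlapped Wild type. Gene totals do not show which exon form was present. Wild type replicate 3 stood apart from the other libraries in base composition. Across 12501 genes, its deviation from the mean of all libraries had a correlation of -0.67 with transcript GC content, against -0.44 in J17a replicate 2, -0.29 in J1 lf/lf replicate 1, -0.28 in J17b replicate 2 and -0.09 to 0.33 in the other 16. Because 3 libraries make up Wild type, the values against that group on which the text dwells are given with and without this library. Rn45s, a ribosomal RNA precursor, also parted the libraries. It was at 3066 to 6718 CPM in all Wild type, J1 lf/lf and J2 lf/lf libraries and in J17a replicate 1. In all J17b, J27a and J27b libraries and in J17a replicates 2 and 3 it was at 17321 to 54698 CPM. Contrasts of J17b, J27a or J27b with Wild type, J1 lf/lf or J2 lf/lf therefore coincide with this difference.

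The 3 C1q genes lie side by side on chromosome 4 of the mm10 mouse genome, all on the minus strand and within 18.7 kb in the GENCODE M21 annotation: C1qb at 136880129 to 136886187, C1qc at 136889804 to 136893065 and C1qa at 136895917 to 136898803. P2ry12 is on chromosome 3 (59216272 to 59262871), Tmem119 on chromosome 5 (113793729 to 113800516), Cx3cr1 on chromosome 9 (119901616 to 120069879), and Aif1 and Trem2 on chromosome 17 (35170991 to 35176068 and 48346401 to 48354147). RefSeq promoter windows on GRCm38.p6 were matched for 6 members, all but C1qa, Tmem119 and Csf1r. The letters GAGGAA, the core of the site bound by PU.1, the macrophage transcription factor, were searched on both strands in the 250 bases before each start. They were found in 4 of the 6 windows (Aif1, C1qb, C1qc and Trem2) and not in those of Cx3cr1 and P2ry12, and 23.3% of 32851 windows of the same length hold them. The stretches of C1qb, C1qc and P2ry12 follow because the values of these genes part ways in the results. Each is written 5′ to 3′ on the gene's strand, capitals mark GAGGAA or its reverse complement, and C1qc is shown for the 99 bases that precede the annotated transcript.
C1qb, chr4:136886201-136886450, minus strand: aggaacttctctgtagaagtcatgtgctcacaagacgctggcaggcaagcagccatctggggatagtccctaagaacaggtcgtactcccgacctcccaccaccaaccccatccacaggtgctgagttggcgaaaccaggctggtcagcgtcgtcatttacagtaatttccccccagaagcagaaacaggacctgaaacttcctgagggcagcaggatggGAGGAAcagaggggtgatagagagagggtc
C1qc, chr4:136893066-136893164, minus strand: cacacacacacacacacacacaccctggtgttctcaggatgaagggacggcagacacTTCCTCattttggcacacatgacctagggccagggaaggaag
P2ry12, chr3:59262986-59263235, minus strand: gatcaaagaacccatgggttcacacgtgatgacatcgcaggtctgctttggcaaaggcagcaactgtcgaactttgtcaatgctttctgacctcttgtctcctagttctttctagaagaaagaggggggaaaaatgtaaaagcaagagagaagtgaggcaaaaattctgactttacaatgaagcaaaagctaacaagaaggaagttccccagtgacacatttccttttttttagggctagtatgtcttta
In C1qb the first base of the match lies 30 bases before the RefSeq start, and in C1qc 193 bases before it. A match is a description of the letters and not a measured binding site.

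By length-corrected level, the complement genes led. C1qb averaged 103.7 ± 8.18 TPM, C1qa 98.7 ± 13.4 TPM and C1qc 81.4 ± 9.55 TPM over the 20 libraries (SD, n = 20). Csf1r, the receptor for the growth factors CSF1 and IL-34, followed at 55.1 ± 3.32 TPM. Cx3cr1, the receptor for the neuronal chemokine CX3CL1, and P2ry12, the ADP receptor, were nearly level at 29.4 ± 1.93 and 28.5 ± 3.81 TPM. Trem2, a lipid-sensing receptor that signals through TYROBP, stood at 25.3 ± 3.96 TPM and Tmem119, a surface protein of microglia, at 23.0 ± 2.95 TPM. Aif1, which encodes the calcium-binding protein IBA1, was lowest at 9.79 ± 1.97 TPM. The sum of the 9 ran from 383 TPM in Wild type replicate 3 to 526 TPM in J2 lf/lf replicate 2, with a median of 451 TPM.

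The members differed in how closely the libraries held together. Csf1r had a coefficient of variation of 5.91% over the 20 libraries and a ratio of highest to lowest CPM of 1.20, Cx3cr1 6.81% and 1.36, and C1qb 7.63% and 1.38. P2ry12 (11.7%), C1qc (12.6%), Tmem119 (13.4%), C1qa (14.4%) and Trem2 (16.2%) varied more. Aif1 varied most, at 20.2% with a ratio of 2.31, on only 45 to 102 counts per library, where Csf1r had 1866 to 3204.

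**Figure D1:**
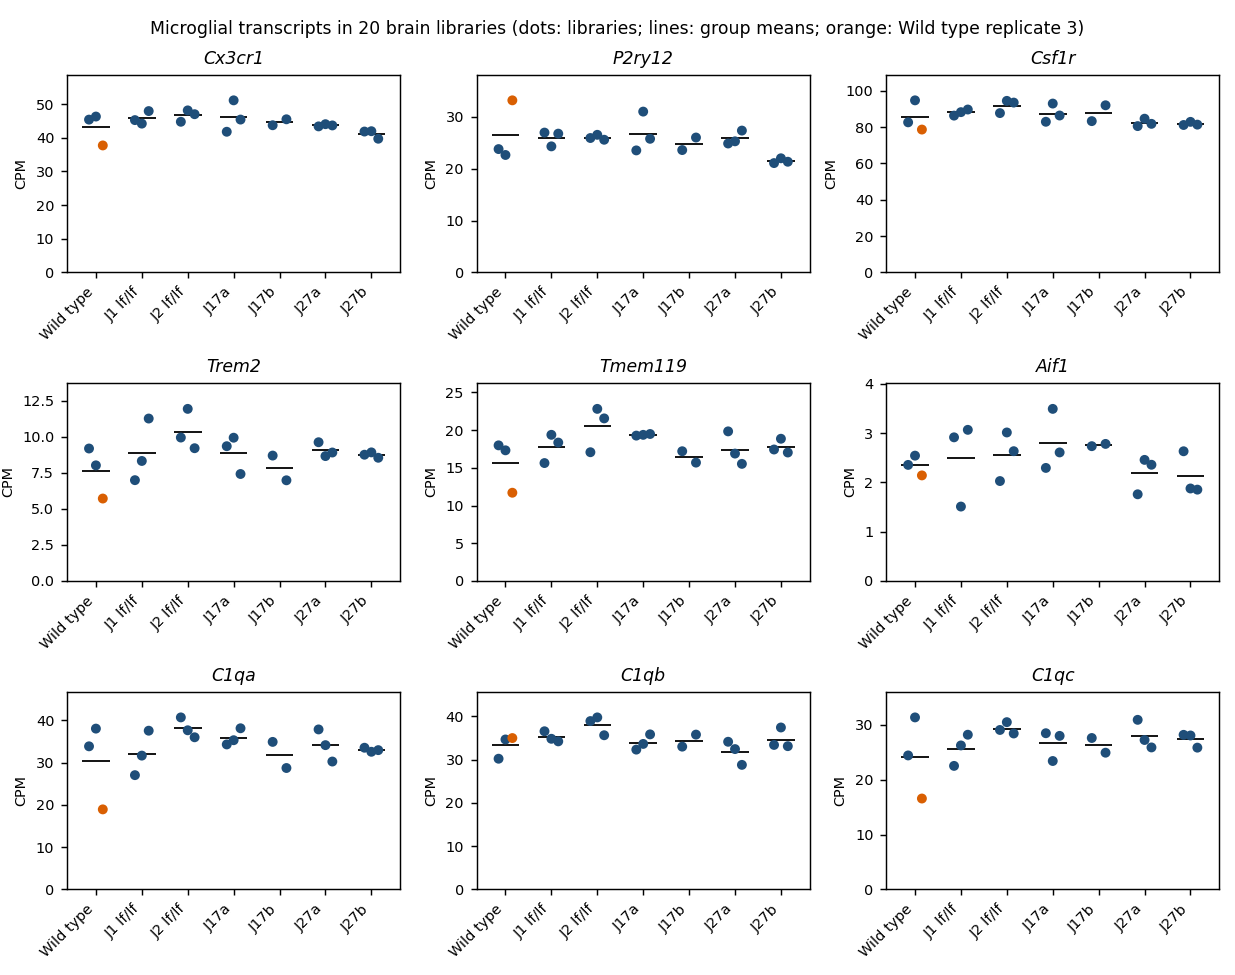
CPM (vertical axis, from 0) of each of the 9 genes in the 20 libraries, by genotype group (horizontal axis); each dot is a library, each line a group mean, and the orange dot is Wild type replicate 3. The orange dot is the lowest value for 6 genes and the highest for P2ry12, and the 3 J27b dots are the lowest for P2ry12.

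No member passed the threshold of an adjusted p of 0.05 in any comparison. In the edgeR quasi-likelihood test over the 7 groups, 0 of 9 members were called, where 14 genes (0.0872% of all tested) were. None of the 9 reached an unadjusted p under 0.05 in it, where 6.71% of all genes did, and their adjusted p-values ran from 0.873 (C1qb) to 0.953 (Aif1). DESeq2 and limma on log2(TPM + 1) also called 0 members in this test.

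Single contrasts gave the same count. Against Wild type, edgeR called 0 of 9 members in J1 lf/lf (0.0125% of all genes were called), J2 lf/lf (0.00623%), J17a (0%), J17b (0.0249%), J27a (0%) and J27b (0%). These 6 comparisons share the Wild type libraries and are not independent of one another. Among the lines, edgeR called 0 of 9 in J17a against J17b (0%), J27a against J27b (0%), J17a against J1 lf/lf (0.00623%), J17b against J1 lf/lf (0.0311%), J27a against J2 lf/lf (0.00623%), J27b against J2 lf/lf (0.00623%) and J1 lf/lf against J2 lf/lf (0.0809%). DESeq2 and limma called 0 members in each of the 13 contrasts. At an unadjusted p under 0.05, edgeR counted 11 values over the 9 members and 13 contrasts. Against Wild type these were 3 in J2 lf/lf (7.94% of all genes), 1 in J17a (4.39%), 1 in J27b (6.94%) and 0 in J1 lf/lf (5.04%), J17b (5.85%) and J27a (4.84%). There were 2 in J27a (6.36%) and 3 in J27b (4.75%) against J2 lf/lf, 1 in J27a against J27b (5.79%), and 0 in J17a against J17b (5.9%), J17a against J1 lf/lf (6.54%), J17b against J1 lf/lf (4.22%) and J1 lf/lf against J2 lf/lf (6.38%).

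The width of the intervals differed between genes. For Csf1r in J1 lf/lf against Wild type the 95% interval of the fold ran from 0.933 to 1.14, and for Cx3cr1 from 0.939 to 1.20. For Aif1 it ran from 0.719 to 1.54. In counts simulated for J2 lf/lf against Wild type over the 16063 genes, the test recovered 24.4% of genes changed 1.3-fold, 64.2% of those changed 1.5-fold and 90.9% of those changed 2-fold, so that changes near 1.3-fold would mostly have been missed.

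**Figure D2:**
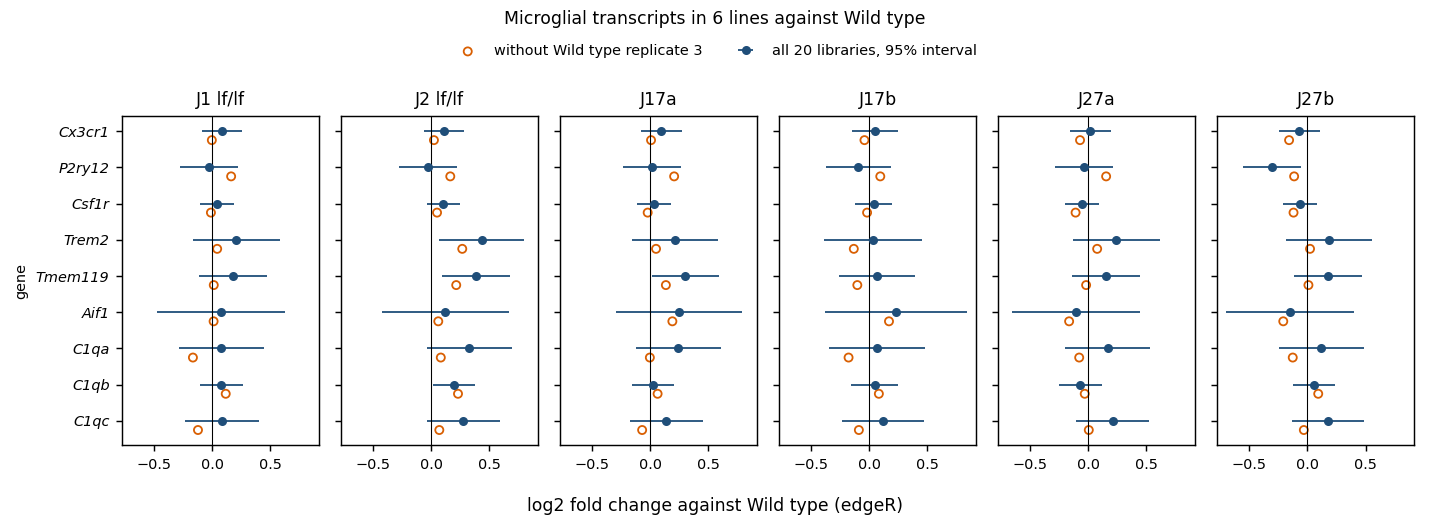
Log2 fold change against Wild type (horizontal axis) of each of the 9 genes (vertical axis) in 6 lines; filled points and bars are edgeR estimates with 95% intervals from all 20 libraries, open points the estimates without Wild type replicate 3. In J27b the P2ry12 estimate is -0.30 with all libraries and -0.11 without that one.

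P2ry12, which directs microglial processes towards released nucleotides, was lowest in J27b. Its CPM was 23.8, 22.6 and 33.2 in Wild type, 26.96, 24.3 and 26.8 in J1 lf/lf, 25.9, 26.5 and 25.6 in J2 lf/lf, 23.5, 31.0 and 25.8 in J17a, 23.6 and 26.0 in J17b, 24.9, 25.3 and 27.3 in J27a, and 21.1, 22.0 and 21.3 in J27b. The 3 J27b libraries were the 3 lowest of the 20, and the highest was Wild type replicate 3. In the order of group means, J17a (26.8 ± 3.84 CPM) to J17b (24.8 ± 1.71 CPM) overlapped from neighbour to neighbour, and only the last step, to J27b (21.5 ± 0.477 CPM), had no overlap. Against Wild type the log2 fold change was -0.30 (SE 0.12, edgeR unadjusted p = 0.019, adjusted p = 0.713). Each J27b library lay below each Wild type library, as 5.9% of all genes did. Without Wild type replicate 3 it was -0.11 (SE 0.10, adjusted p = 0.858), so that most of the estimated difference rested on this library. Against J27a, which like J2 lf/lf also has a JNK2 code, J27b was lower by the same order: J27a minus J27b was 0.27 (SE 0.12, edgeR unadjusted p = 0.037, adjusted p = 0.854). Against J2 lf/lf it was -0.28 (SE 0.12, edgeR unadjusted p = 0.0308, adjusted p = 0.991). Neither of the last 2 values uses a Wild type library for its means.

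P2ry12 has the least GC-rich transcript of the 9 (38.6% GC, where the others have 50.3% to 59.5%), and it was highest in the library with the strongest trend on GC. After a smooth trend on transcript GC was taken out of each library, an alternative chosen after seeing the data, the standard deviation of P2ry12 within groups fell from 0.15 to 0.068 on the log2 scale. That of Tmem119, C1qa, C1qc and Trem2 also fell. It rose for C1qb, from 0.095 to 0.149, and slightly for Cx3cr1, Csf1r and Aif1. For P2ry12 the 3 J27b libraries were again the 3 lowest, at -0.24, -0.17 and -0.21 from the mean of all libraries, next to -0.090 to 0.15 in the other 17. In the edgeR fit with this trend as an offset, J27b was at -0.20 against Wild type (SE 0.076, adjusted p = 0.562), -0.33 against J2 lf/lf (SE 0.076, adjusted p = 0.201), and J27a minus J27b was 0.23 (SE 0.076, adjusted p = 0.449). The direction was kept in all 3 contrasts and none passed the threshold.

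Cx3cr1 and Csf1r, the other receptors that tie microglia to neuronal and growth-factor signals, were among the steadiest members. Cx3cr1 had its highest group mean in J2 lf/lf (46.6 ± 1.72 CPM, n = 3) and its lowest in J27b (41.2 ± 1.26 CPM, n = 3), and each group overlapped the next in the order. The J27b libraries, at 41.8, 41.9 and 39.7 CPM, lay below the J27a libraries (43.4 to 44.0 CPM) and the J2 lf/lf libraries (44.7 to 48.1 CPM). Of all genes, 8.44% lay below J27a in this way and 8.02% below J2 lf/lf. J27b minus J2 lf/lf was -0.18 (SE 0.084, edgeR unadjusted p = 0.0448, adjusted p = 1). Csf1r had the same groups at the ends, with 91.9 ± 3.64 CPM in J2 lf/lf and 81.8 ± 0.945 CPM in J27b. Its libraries in J27a (80.5, 84.6 and 81.8 CPM) and in J27b (81.1, 82.9 and 81.3 CPM) all lay below those of J2 lf/lf (87.7, 94.4 and 93.5 CPM). So did 8.62% of all genes in J27a and 8.02% in J27b. The log2 differences from J2 lf/lf were -0.16 in J27a (SE 0.070, edgeR unadjusted p = 0.0335, adjusted p = 0.728) and -0.17 in J27b (SE 0.070, edgeR unadjusted p = 0.0253, adjusted p = 0.983). Against Wild type, Csf1r stayed within -0.06 and 0.11 and Cx3cr1 within -0.07 and 0.11 on the log2 scale in all 6 lines with all libraries. The low ends moved out when Wild type replicate 3 was omitted, to -0.12 for Csf1r (J27b, edgeR adjusted p = 0.747) and -0.16 for Cx3cr1 (J27b, edgeR adjusted p = 0.693).

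Trem2, the receptor that senses lipids and cell debris, was highest in J2 lf/lf. Its CPM was 9.18, 8.01 and 5.71 in Wild type, 6.98, 8.31 and 11.3 in J1 lf/lf, 9.94, 11.9 and 9.20 in J2 lf/lf, 9.34, 9.93 and 7.41 in J17a, 8.69 and 6.97 in J17b, 9.61, 8.65 and 8.90 in J27a, and 8.75, 8.91 and 8.54 in J27b. Each J2 lf/lf library lay above each Wild type library, by a narrow margin for 1 of them (9.20 against 9.18 CPM), and 5.4% of all genes were higher in J2 lf/lf without overlap. The log2 fold change was 0.43 (SE 0.18, edgeR unadjusted p = 0.0229, adjusted p = 0.618) with all libraries and 0.27 (SE 0.17, adjusted p = 0.999) without Wild type replicate 3.

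Tmem119 showed a similar order. Its CPM was 17.98, 17.3 and 11.7 in Wild type, 15.6, 19.4 and 18.3 in J1 lf/lf, 17.1, 22.8 and 21.6 in J2 lf/lf, 19.3, 19.4 and 19.5 in J17a, 17.2 and 15.7 in J17b, 19.8, 16.9 and 15.5 in J27a, and 17.4, 18.9 and 17.03 in J27b. The 3 J17a libraries were nearly equal and lay above each Wild type library (3.47% of all genes did so) and above both J17b libraries (9.85%), whereas J2 lf/lf overlapped Wild type. The log2 fold change against Wild type was 0.38 in J2 lf/lf (SE 0.14, edgeR unadjusted p = 0.0118, adjusted p = 0.618) and 0.30 in J17a (SE 0.14, edgeR unadjusted p = 0.0407, adjusted p = 0.993). With Wild type replicate 3 left out these were 0.22 (SE 0.12, adjusted p = 0.999) and 0.13 (SE 0.12, adjusted p = 0.839). J17a minus J17b was 0.24 (95% interval -0.09 to 0.56, edgeR adjusted p = 0.891).

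Aif1 gave the widest scatter and no group order beyond it. The lowest and the highest single values were 1.51 CPM in J1 lf/lf replicate 2 and 3.49 CPM in J17a replicate 2, and J1 lf/lf alone spanned 1.51 to 3.07 CPM. Group means ran from 2.12 ± 0.443 CPM in J27b (n = 3) to 2.80 ± 0.621 CPM in J17a (n = 3), and each overlapped the next. Both J17b libraries (2.73 and 2.78 CPM) lay above the 3 Wild type libraries (2.14 to 2.54 CPM), as 8.57% of all genes did, at a log2 fold change of 0.23 (95% interval -0.38 to 0.84, edgeR adjusted p = 0.962) and of 0.17 without Wild type replicate 3.

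The 3 genes of C1q encode the A, B and C chains, which assemble in equal numbers into the C1q molecule. C1qa was at 33.9, 38.1 and 18.95 CPM in Wild type, 27.1, 31.7 and 37.6 in J1 lf/lf, 40.7, 37.7 and 36.02 in J2 lf/lf, 34.3, 35.3 and 38.1 in J17a, 34.9 and 28.7 in J17b, 37.9, 34.2 and 30.3 in J27a, and 33.5, 32.6 and 33.0 in J27b. C1qc was at 24.4, 31.4 and 16.6 CPM in Wild type, 22.5, 26.2 and 28.2 in J1 lf/lf, 29.1, 30.5 and 28.4 in J2 lf/lf, 28.5, 23.4 and 28.0 in J17a, 27.6 and 24.9 in J17b, 30.9, 27.2 and 25.9 in J27a, and 28.2, 28.1 and 25.8 in J27b. Wild type replicate 3 was the lowest library for both by a wide margin. The 2 other Wild type libraries fell among those of the lines for C1qa, whereas for C1qc replicate 2 was the highest of all 20. C1qb was at 30.2, 34.6 and 34.97 CPM in Wild type, 36.5, 34.8 and 34.2 in J1 lf/lf, 38.9, 39.7 and 35.6 in J2 lf/lf, 32.3, 33.6 and 35.8 in J17a, 33.0 and 35.8 in J17b, 34.1, 32.4 and 28.8 in J27a, and 33.4, 37.4 and 33.1 in J27b. In C1qb the Wild type replicate 3 value was the highest of its group.

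All 3 chains had their highest group mean in J2 lf/lf. Sums of some other gene lists also stood apart there. The oligodendrocyte genes summed to 7617 to 8207 TPM in J2 lf/lf and 5973 to 7346 TPM in Wild type, without overlap. The red blood cell genes summed to 2851 to 3827 and 3876 to 5925 TPM, without overlap but by a narrow margin. Inflammatory cytokines and sensors summed to 61.3 to 78.8 TPM in J2 lf/lf and 42.3 to 56.6 TPM in Wild type, without overlap. Nfkbia, at a mean of 41.2 TPM over the 20 libraries, supplied most of that sum. Signalling adaptors and kinases summed to 293 to 326 and 271 to 286 TPM, also without overlap. Sums of the phagocytic, interferon response and MHC class II genes overlapped between these groups. No share over all genes was computed for such sums. The choroid plexus and ependymal genes had 9 of 9 log2 values above 0 in J2 lf/lf (median 0.54). Their sums overlapped, at 773 to 2282 TPM in Wild type and 1433 to 4328 TPM in J2 lf/lf. In edgeR 0 genes of any of these lists were called. The part of these cells and gene lists in the C1q values was not tested. Against Wild type, the log2 fold change there was 0.33 for C1qa (SE 0.17, edgeR adjusted p = 0.638), 0.19 for C1qb (SE 0.086, edgeR adjusted p = 0.624) and 0.28 for C1qc (SE 0.15, edgeR adjusted p = 0.638). Without Wild type replicate 3 the values were 0.08, 0.23 and 0.07 with an adjusted p of 0.999 each, so the chains parted: the estimates for C1qa and C1qc shrank and that for C1qb did not. With the GC trend as an offset they were 0.21, 0.06 and 0.18, the opposite order, and C1qb was at 0.13 without Wild type replicate 1. C1qb in J2 lf/lf also lay above each J27a library, as 8.62% of all genes did. The value was -0.26 for J27a minus J2 lf/lf (SE 0.087, edgeR unadjusted p = 0.00674, adjusted p = 0.552). That unadjusted p was the smallest of any member in the 13 contrasts.

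The ratio between chains was steady in most libraries. C1qa to C1qb had a median of 1.02 in TPM and C1qc to C1qb one of 0.798. In Wild type replicate 3 these ratios were 0.528 and 0.479, below the 0.722 to 1.09 and 0.623 to 0.916 of the other 19 libraries. C1qa to C1qc was 1.10 there, next to 1.11 to 1.45 in the other 19, so the A and C chains were low in that library to a like extent while the B chain was not.

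**Figure D3:**
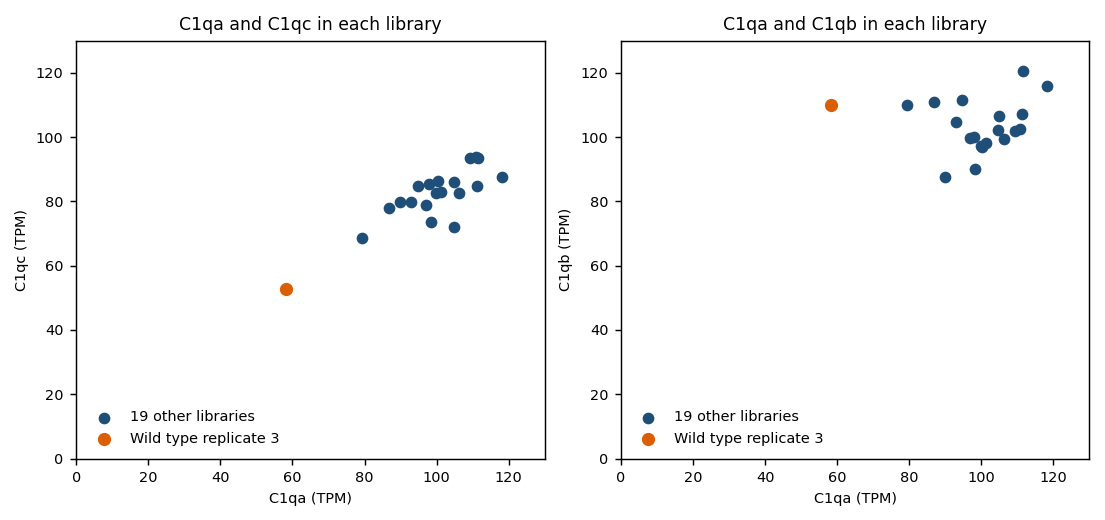
TPM of C1qc (left, vertical axis) and C1qb (right, vertical axis) against C1qa (horizontal axes) in each of the 20 libraries; the orange point is Wild type replicate 3. C1qc follows C1qa over all libraries, whereas C1qb in the orange library (110 TPM) stays within the range of the others at the lowest C1qa value (58.2 TPM).

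Wild type replicate 3 was the lowest of the 20 libraries for Cx3cr1, Tmem119, Csf1r, C1qa, C1qc and Trem2 and the highest for P2ry12. Its log2 difference from the mean of the other 19 was -0.86 for C1qa, -0.72 for C1qc, -0.64 for Trem2, -0.63 for Tmem119, -0.25 for Cx3cr1, -0.17 for Aif1, -0.14 for Csf1r, 0.03 for C1qb and 0.42 for P2ry12. Transcript GC was 59.5% for C1qa, 59.1% for Tmem119, 57.5% for both Trem2 and C1qc, 57.4% for C1qb, 54.5% for Csf1r, 51.4% for Aif1, 50.3% for Cx3cr1 and 38.6% for P2ry12. Over all genes, the median deviation of this library was 0.26 for the 2857 genes under 45% GC and -0.31 for the 3168 genes over 55%. Of the 9 members, 6 (C1qa, C1qc, Trem2, Tmem119, Cx3cr1 and Aif1) lay below the lower quartile of genes of their GC content, C1qb lay above the upper one, and P2ry12 and Csf1r lay between. With the GC trend taken out, the differences were -0.46 for C1qa, -0.40 for C1qc, -0.32 for Trem2, -0.25 for Tmem119, -0.26 for Cx3cr1, 0.07 for P2ry12 and 0.33 for C1qb, and the library remained the lowest of 20 for the first 5 of these and became the highest for C1qb. The value of P2ry12 was then no longer at an end, and that of Csf1r moved to 0.04.

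**Figure D4:**
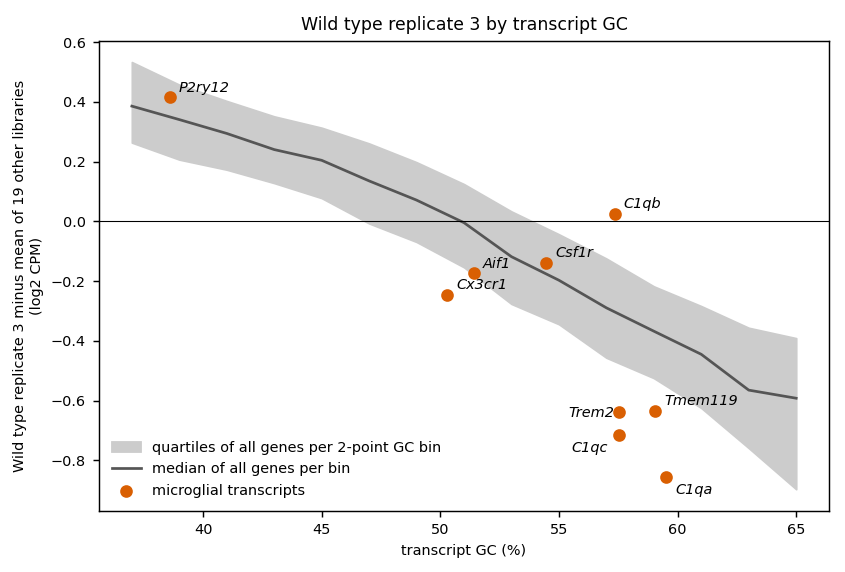
Log2 CPM of Wild type replicate 3 minus the mean of the 19 other libraries (vertical axis) against transcript GC content in percent (horizontal axis), for the 9 genes (orange points) and for all genes (grey line: median per 2-point bin; grey band: quartiles). P2ry12 at 38.6% GC lies at 0.42 and C1qa at 59.5% GC at -0.86, while C1qb at 57.4% lies at 0.03.

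Counted over the members, more log2 values lay above 0 than below it in the lines against Wild type. Such counts are not counts of independent observations. The members come from the same libraries, and the correlation between members was above 0 in 31 of 36 pairs. In J1 lf/lf 8 of 9 were above 0 (median 0.080), in J2 lf/lf 8 (0.19), in J17a 9 (0.14), in J17b 8 (0.047), in J27a 5 (0.017) and in J27b 5 (0.058), where the median over all genes was between -0.0045 and 0.0042. Without Wild type replicate 3 the numbers above 0 were 5, 9, 6, 3, 3 and 3 and the medians 0.013, 0.083, 0.051, -0.040, -0.029 and -0.11. Without that library more than 5 members were thus above 0 only in J2 lf/lf and J17a, and the sign of the median turned in J17b, J27a and J27b. That of J27b also turned without Wild type replicate 1 (-0.0072) and with the GC offset (-0.028). The lines set against each other do not use Wild type: all 9 members were below 0 in J27a, in J27b and in J1 lf/lf against J2 lf/lf, with medians of -0.16, -0.20 and -0.11, but these 3 contrasts share the J2 lf/lf libraries. All J27a and J27b libraries were also high in Rn45s and all J2 lf/lf libraries low. The part of that library difference in these values was not tested beyond leaving Rn45s itself out. Without J2 lf/lf replicate 2 the median of J27a was -0.095 with 1 member above 0, and 2 members were above 0 in J1 lf/lf. The median of J1 lf/lf was -0.22 without J1 lf/lf replicate 3 and -0.19 without J2 lf/lf replicate 1, and 2 members were above 0 without J1 lf/lf replicate 2. Leaving out J27a replicate 1 or 2 put 1 member above 0 in J27a. In J27b against J2 lf/lf, 6 of 9 members were lower without overlap of libraries (8.02% of all genes were), namely Cx3cr1, P2ry12, Csf1r, C1qa, C1qc and Trem2. In J27a against J2 lf/lf these were Cx3cr1, Csf1r and C1qb (8.62% of all genes), in J1 lf/lf against J2 lf/lf C1qc (7.83%), and in J27a against J27b, Cx3cr1 and P2ry12 were higher in J27a (8.44%). The shares are over single genes and give no rate for a set of members that move together.

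The exon forms were compared within each kinase. J17a minus J17b had a member median of 0.048, with 7 of 9 above 0, and J27a minus J27b one of 0.042, also with 7. A test of the difference between these 2 contrasts called 0 of 9 members, with log2 differences from -0.16 for P2ry12 (edgeR adjusted p = 0.937) to 0.26 for Tmem119 (edgeR adjusted p = 0.896). Against the group with the matching JNK number, J17a had a median of 0.042 and J17b of -0.033 relative to J1 lf/lf, and in neither did a member reach an unadjusted p under 0.05 in edgeR. These small medians rested on single libraries: without J17a replicate 2 those of J17a were -0.0040 against J17b and -0.043 against J1 lf/lf, that of J17a against J1 lf/lf was -0.0097 without J1 lf/lf replicate 2, and that of J17b against J1 lf/lf was 0.0057 without J1 lf/lf replicate 3.

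**Figure D5:**
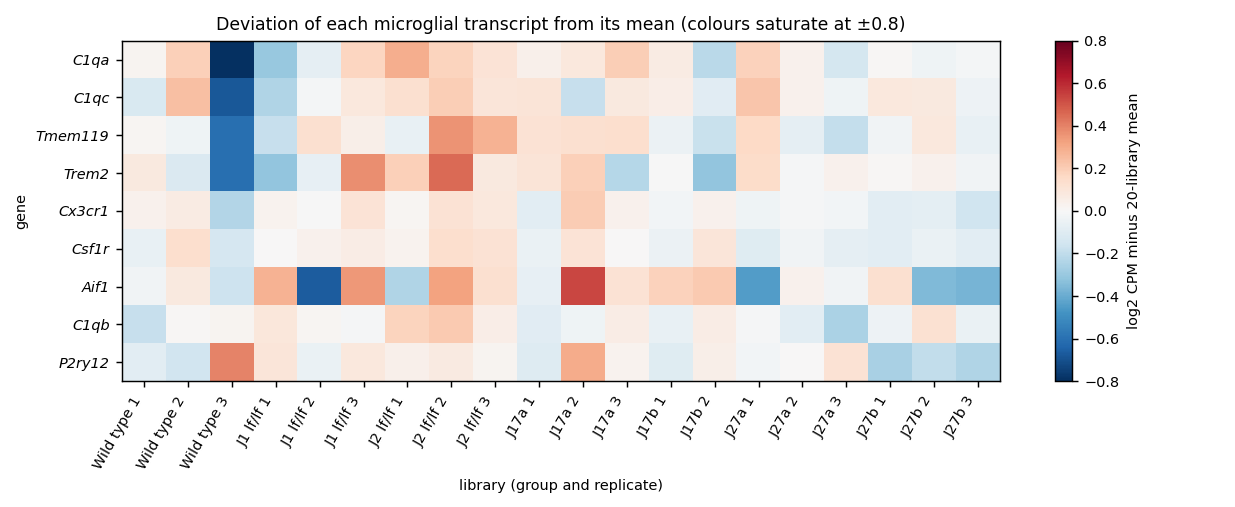
Log2 CPM of each gene (rows) in each library (columns) minus the gene's mean over the 20 libraries, red above and blue below the mean. The Wild type 3 column is blue for most genes and red for P2ry12, and the 3 J27b columns are blue for P2ry12.

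How the members moved together was examined over the 20 libraries for all 36 pairs. Pearson's r was above 0 in 31 pairs with a median of 0.32, and 11 pairs had a permutation p under 0.05 after adjustment over the 36, 10 of them positive. By Spearman's rho 3 pairs did: Cx3cr1 with Csf1r, C1qa with C1qc, and Cx3cr1 with Aif1. C1qa and C1qc were closest, at r = 0.90 and rho = 0.75 (permutation p adjusted to 0.0005 and 0.0025), with r = 0.73 without Wild type replicate 3, 0.63 without the 2 libraries farthest from the median of C1qa and 0.74 with the GC trend taken out. Cx3cr1 and Csf1r followed at r = 0.82 and rho = 0.88 (permutation p adjusted to 0.0004 each). Their r was 0.80 without Wild type replicate 3, 0.80 without the 2 libraries farthest from the median of Cx3cr1 and 0.58 with the GC trend out. Both pairs held when each group was centred on its own mean, at r = 0.90 and 0.79. Tmem119 had r of 0.80 with C1qa, 0.75 with C1qc and 0.75 with Trem2. Of these, 0.54, 0.38 and 0.42 were left without the 2 libraries farthest from the median of Tmem119. The size of these relations thus rested in part on those libraries.

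The r of C1qb with its neighbours depended on the setting. It was 0.12 with C1qa and 0.14 with C1qc (permutation p adjusted to 0.730 and 0.654). The values were 0.26 and 0.30 without Wild type replicate 3, and -0.24 and -0.30 with the GC trend out. With C1qa it was 0.44 without the 2 libraries farthest from the median of C1qa. With C1qc it was 0.04 without the 2 farthest from the median of C1qb, which is a different exclusion. P2ry12 had r = -0.63 with C1qc, the 1 negative pair past the threshold (permutation p adjusted to 0.0158, and rho = -0.38, adjusted to 0.225). This r was -0.17 without the 2 libraries farthest from the median of P2ry12 and -0.36 without Wild type replicate 3. It was -0.09 with the GC trend out and -0.85 with each group centred on its mean. With Cx3cr1, P2ry12 had r = 0.22 over all libraries, 0.78 without Wild type replicate 3, 0.57 with the GC trend out and -0.14 with groups centred. Against the mean of the other 8 members, r was highest for Cx3cr1 (0.83; 0.70 without Wild type replicate 3) and lowest for P2ry12 (-0.15; 0.36 without it, when C1qc at 0.25 and Aif1 at 0.32 were lower). These relations are over libraries that also differ in base composition, and no labelled batch was present to compute them within.

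Outside the 9, the genes most like the mean of the members' standardised log2 CPM were found among 12991 genes with a mean log2 CPM of at least 1. Over the 20 libraries they were Pfdn5 (r = 0.81), Arpc1b (0.78), Rnf114 (0.78), Mpst (0.78), Gldc (0.78), Sirt2 (0.78), Bloc1s1 (0.77), Wdr5 (0.76), Axl (0.76) and Nf2 (0.75). Only Axl, a receptor for phagocytic signals, was in a microglial list used here. With each group centred on its mean the first 3 were Acsf2 (0.87), Ddit3 (0.86) and Olfml2b (0.84), and Arpc1b was the only gene in both sets of 10. Without Wild type replicate 3 the first 3 were Gadd45g (0.80), Pfdn5 (0.72) and Wdr5 (0.72).

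The partners of the member receptors were measured in the same libraries. Of 6 tested ligand and C1q partner genes, edgeR called 0 in any contrast. They include Apoe, a lipid carrier and TREM2 ligand (mean 3384 TPM, 2642 to 3949 over the libraries), Clu (1115 TPM) and Cx3cl1, the ligand of CX3CR1 (497 TPM, 377 to 571). Their median log2 fold change against Wild type lay between -0.031 (J27b) and 0.064 (J2 lf/lf), and between -0.11 (J27b) and -0.041 (J2 lf/lf) without Wild type replicate 3. Of 8 tested adaptors and kinases 0 were called, with Gnai2, the inhibitory G protein subunit used by P2RY12 and CX3CR1, at 215 TPM and Tyrobp, the adaptor of TREM2, at 52.8 TPM. Their median ran from -0.017 in J27b to 0.14 in J17b, and from -0.11 to 0.092 in these lines without that library. Of 9 transcription factors and their regulators 0 were called, with Mef2c (152 TPM, also a neuronal gene) and Smad3 (39.3 TPM) the most abundant.

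Other microglial lists gave no calls either. Among 10 further homeostatic genes, including Cst3 (3969 TPM) and Ctss (121 TPM), all 10 were above 0 in J2 lf/lf and in J17a against Wild type, with medians of 0.12 and 0.16, and 7 in J27b (0.038). The numbers were 9, 6 and 5 without Wild type replicate 3, with medians of 0.069, 0.076 and 0.011. Cst3 is also made by other brain cells. Among 14 phagocytic and disease-associated genes, led by the cathepsin genes Ctsd (504 TPM) and Ctsb (332 TPM) and by Cd63 (189 TPM), the number above 0 against Wild type was 8 (J27a, J27b) to 11 (J1 lf/lf), with medians of 0.010 to 0.15, and of -0.018 (J17b) to 0.10 (J2 lf/lf) without that library. Complement genes outside C1q had a median of -0.093 in J2 lf/lf, where the C1q chains had their highest means, and 0.19 in J27b, with 4 and 6 of 9 above 0 and 0 called. The first was 0.038 without Wild type replicate 2, and the second 0.020 without replicate 3 and 0.035 without replicate 1. Medians over all genes were within 0.01 of 0 in each of these contrasts.

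Markers of other cells that express some of the 9 were measured as well. The 9 border macrophage genes, of the macrophages along vessels and meninges, summed to 16.5 to 26.0 TPM over the libraries, where the 9 microglial genes summed to 383 to 526 TPM. In J2 lf/lf the border macrophage sum was 16.5 to 18.3 TPM, which overlapped the 23.4, 21.1 and 16.5 TPM in Wild type. All J2 lf/lf libraries lay below Wild type only without Wild type replicate 3, which leaves 2 libraries. No share over all genes was computed for such sums, and edgeR called 0 of the 8 tested genes in any contrast. In J2 lf/lf 2 of 8 tested genes were above 0, with a median log2 fold change of -0.37 (-0.48 without Wild type replicate 3). The median of the 9 microglial genes was above 0 there. In J27b the border macrophage sum was 17.9 to 22.7 TPM, with a median log2 fold change of 0.013 (-0.24 without Wild type replicate 3). Of 10 blood leukocyte genes, 3 passed the filter; S100a8 (1.81 to 62.4 TPM) and S100a9 (3.26 to 38.8 TPM) supplied most of the sum, and Ccr2, of monocytes, was at 0 to 0.38 TPM. The sum was 96.2 TPM in J17a replicate 2, the library highest in Cx3cr1 and Aif1, 94.8 TPM in J27b replicate 2 and 6.80 to 38.2 TPM in the other 18. J27b replicate 2 was high in neither gene, at 41.9 CPM for Cx3cr1 and 1.88 CPM for Aif1, both below the mean of all libraries. The libraries also differed in genes of neighbouring tissue: the anterior pituitary genes summed to 7569 TPM in Wild type replicate 2, 11610 TPM in J1 lf/lf replicate 3 and 2598 TPM in J27a replicate 3, and to 1.18 to 394 TPM in the other 17. The part of these cells in the microglial values was not tested.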

How the data were processed

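Poly(A)-selected brain RNA was sequenced as paired-end reads, per the labels' protocols. The authors deposited 1 table of estimated counts and 1 of TPM for 23845 genes in 20 libraries. Per the submitters' processing notes, cutadapt, RSEM and the mm10 genome were used; tool versions, the gene annotation and the strand setting: not given in the sources used here. Estimated counts deposited by the authors are RSEM expected counts; 4.11% of values were not whole, none of them among the 9 genes, and all were rounded. TPM values deposited by the authors were used for levels between genes.

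Genes were filtered with filterByExpr (16063 kept), scaled by TMM (factors 0.975 to 1.03) and tested with edgeR 4.0.16 (robust quasi-likelihood, R 4.3.3) on 7 group means from all 20 libraries, in 13 contrasts and 1 test over all groups. Tests were two-sided, with Benjamini-Hochberg adjustment over all genes of a contrast and a threshold of 0.05. The common biological coefficient of variation was 12.0%. The chi-square per gene between replicates of a group was at least 5.43, so no library repeated another of its group. Libraries of different groups were not compared in this way. Log2 CPM used a prior count of 0.5. Pair correlations used 100000 permutations. The script was tested on simulated data in 3 runs with 200 changed genes; 4.28% of its calls were false.

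Alternatives were DESeq2 size factors, DESeq2 1.42.0, no filter, fits on the contrasted groups alone, a replicate block, leaving out each library, and limma 3.58.1 on log2(TPM + 1) and on log2(TPM + 0.1). Leaving out Rn45s and a GC offset per library (lowess span 0.3; a GENCODE M21 value for 95.6% of tested genes) were chosen after seeing the data, as were list medians without each Wild type library. Columns were matched to samples by title. The 9 genes were named throughout; genes of other lists were named if called or among the 3 highest by TPM of their list, and 10 most similar genes by correlation; Ccr2 and the similar genes named without Wild type replicate 3 were added after their values were seen. The members, lists and rules were chosen with earlier results of these data known. Values of some list genes are not reported here.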

Additional observations from a re-analysis of the deposited data

How the results depend on the processing

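The count of members called was 0 wherever it was computed: in the test over 7 groups under 28 alternatives, and in each of the 13 contrasts under 14 or 15. Of the 29 alternatives in all, 20 left out 1 library (lowest 0, highest 0) and were computed for the contrasts that use its group, and fits on the contrasted groups alone have no test over 7 groups. The lowest adjusted p of any member was 0.145, for P2ry12 in J27b against J2 lf/lf fitted on those groups alone. The fit with the replicate block gave 0 members called throughout, with a P2ry12 value of -0.30 in J27b against Wild type; the numbers do not pair the samples, since of 57 same-numbered pairs of libraries 2 had a correlation of deviations over 0.1 (median -0.0028, range -0.138 to 0.127) and 3 of 20 libraries matched their own number best outside their group. Counts over all genes did depend on processing: for the test over 7 groups they were 14 with edgeR, 231 with DESeq2, 4 with limma, 39 with the GC offset and 114 without Wild type replicate 3, and for J17b against Wild type 4 and, without that library, 54. The 11 values named at an unadjusted p under 0.05 kept their sign under every alternative, but the alternatives mostly reuse the libraries in which these values were picked. An unadjusted p under 0.05 was kept in 9 to 13 of the 15 alternatives of each. With the GC offset, C1qb in J2 lf/lf against Wild type fell to 0.064. Moves of the contrast medians of the 9 members were set against 0.081, the standard deviation within groups of the members' median in single libraries. By more than this, 10 moved when 1 of 6 libraries was left out (Wild type 2 and 3, J1 lf/lf 3, J17a 1 and 2, J17b 2). With the GC offset 1 did, where J27b against Wild type went from 0.058 to -0.028. Aif1, on 45 to 102 counts per library, is the member most limited by depth.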

Other observations

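The 5 MHC class II genes, by which antigen-presenting cells are recognised, summed to 41.65, 65.95 and 38.37 TPM in Wild type and to 28.8 to 53.9 TPM in the lines. Against Wild type, edgeR called 0 of 5 in each line, with medians on the log2 scale of -0.34 in J1 lf/lf, -0.064 in J2 lf/lf, -0.57 in J17a, -0.54 in J17b, -0.65 in J27a and -0.37 in J27b. Without Wild type replicate 2, which had the highest sum of all 20 libraries, the medians were -0.052, 0.25, -0.28, -0.17, -0.31 and -0.094 in the same order. At an unadjusted p under 0.05, 3 of 5 were counted in J17a (4.39% of all genes) and in J27a (4.84%), 1 in J1 lf/lf (5.04%), J17b (5.85%) and J27b (6.94%), and 0 in J2 lf/lf (7.94%). Without that library 1 was counted in J17a and in J27a and 0 in the other 4. These 6 contrasts share the Wild type libraries.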
